A study of Homo sapiens with 2 samples.

Results

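Collagen chains and the enzymes that hydroxylate and cross-link them were compared between a culture with and a culture without overexpressed miR-127-3p. Members were the genes with a probe set annotated to a single symbol of the form COL with a number, A and a number, or P4HA, PLOD, LOX or LOXL. The rule matched 58 of 19775 named genes, of which 43 are collagen chains, 11 are enzymes and 4 are antisense RNA genes (COL18A1-AS1, LOXL1-AS1, LOXL2-AS1 and P4HA3-AS1) that were kept out of the counts. Both cultures were LN229, an established human glioblastoma line grown in DMEM with serum. One carried the plasmid pSUPER.neo with a miR-127-3p insert and the other carried pSUPER.neo alone. This plasmid family drives small RNAs from an RNA polymerase III promoter, and the labels do not say whether the transfected cells were a pool or a single clone. Total RNA was hybridised to 1 Affymetrix expression array per group, so differences could not be checked against replicates and p-values are absent. In such bulk RNA, fewer cells of a type and less RNA per cell cannot be told apart.

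Collagens are extracellular proteins whose chains wind around each other into a helix built on glycine at regular spacing. Fibrillar collagens form the cables of connective tissue, type IV chains form the sheet of basement membranes, and other families coat fibrils or anchor cells. In the endoplasmic reticulum, prolyl hydroxylases stabilise the helix and lysyl hydroxylases prepare lysines for cross-links, which the secreted lysyl oxidases then start. In brain, collagen is largely limited to vessels and meninges, and glioblastoma cells can add to it.

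The overexpressed microRNA is shown with its seed, bases 2 to 8, in capitals, since the seed directs target pairing. It is the RefSeq entry of MIR127, at chr14:100883035-100883056 on the plus strand of GRCh38.p14.
hsa-miR-127-3p: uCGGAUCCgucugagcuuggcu
Transcript sequences were not used here, so seed matches in members were not searched.

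Type IV chains are encoded in head-to-head pairs whose start sites face each other, and the values below follow these pairs. The stretch between the start sites that lies in the upstream windows of both genes is shown for each pair, from RefSeq on GRCh38.p14, plus strand, with CG dinucleotides in capitals. COL4A1 and COL4A2 have 126 bases between their start sites, at chr13:110307158-110307283, COL4A4 and COL4A3 have 418, of which chr2:227164374-227164455 is shown, and COL4A6 and COL4A5 have 379, of which chrX:108439588-108439708 is shown.
COL4A1 and COL4A2: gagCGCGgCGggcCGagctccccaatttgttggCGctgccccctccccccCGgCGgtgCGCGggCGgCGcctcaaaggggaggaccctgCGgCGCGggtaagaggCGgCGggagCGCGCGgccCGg
COL4A4 and COL4A3: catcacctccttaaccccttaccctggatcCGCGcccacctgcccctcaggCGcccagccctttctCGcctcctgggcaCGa
COL4A6 and COL4A5: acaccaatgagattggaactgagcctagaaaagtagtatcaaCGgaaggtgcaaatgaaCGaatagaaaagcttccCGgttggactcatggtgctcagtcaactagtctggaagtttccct
The printed stretches hold 80.2%, 67.1% and 44.6% G and C, with 20, 5 and 3 CG dinucleotides, in this order. The median over 35116 RefSeq windows of 250 bases upstream was 58% G and C.

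Across the array, 54675 probe sets were measured, and the median signal without control probe sets was 83.3 for miR-127-3p against 93.9 for the control, in arbitrary units. For RNA quality, 3′ over 5′ control signals were 0.97 and 0.98 for GAPDH and 2.95 and 3.36 for ACTB. Of 10 glial and glioblastoma markers, 8 were above the median of the miR-127-3p array and 7 above that of the control array, and GFAP, the astrocyte filament, was below it on both. Members differed in both directions: SLC1A3, which clears glutamate in astrocytes, was higher in the miR-127-3p culture by at least 28.1-fold, and the neural stem cell genes SOX2 and NES were at -1.24 and -1.03 in log2 ratio. The other NES probe set was within 2-fold, at -0.46. Epithelial markers stood apart: 2 of 12 were above the median of the miR-127-3p array and 9 of 12 above that of the control array, with summed signals of 7516 and 94286. KRT19 was at least 151-fold, EPCAM at least 110-fold and DSP at least 83.6-fold lower in the miR-127-3p culture, and KRT8 was 55.4-fold lower, differences far wider than those of most collagens and enzymes. Of 8 fibroblast markers, 7 and 8 were above the median, with summed signals of 23918 and 17188. Whether the cultures differed in more than the plasmid was not tested, and with 1 array each such a difference and the microRNA cannot be told apart in any ratio that follows.

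Below, a gene is represented by its probe set with the highest mean among those with a mean log2 signal over the arrays past that of the median probe set, which corresponds to a signal of 83.0. The log2 ratio is miR-127-3p minus control on the log2(signal + 1) scale after centring on the median gene, and folds are its antilog to base 2. Where a pair of signals is given, the miR-127-3p array comes first. Of the 54 collagen and enzyme genes, 32 were above this filter. Collagen chains differed in both directions with miR-127-3p, and the enzymes were mostly lower. At least 2-fold higher were COL4A6, COL4A5, COL12A1 and COL5A1, which is 4 of 32 or 12.5%, against 5.06% of all 11985 genes above the filter. By their measured signals COL22A1, LOXL4, COL1A1, LOXL1, P4HA3, COL11A1, COL11A2 and P4HA1 were past 2-fold lower, which is 8 of 32 or 25%, against 8.67% of all genes. With signals below an array median set to that median, P4HA3 was within 2-fold and the count was 7 of 32, or 21.9%, against 8.04% of all genes. Among the lower genes, P4HA3 and LOXL4 read below 83.0 on the miR-127-3p array and passed the filter only through their control signals. Counted by probe set, 7 of 57 were at least 2-fold higher and 11 lower, against 5.28% and 8.08% of all 22459 probe sets. The median log2 ratio of the 32 members was -0.41, beside 0 over all genes.

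Probe sets of the same gene gave a measure of error within the arrays, with a spread of 0.41 in log2 ratio (SD, from 5974 pairs of probe sets), which holds no variation between cultures. Of 18 members with several probe sets above the filter, 15 had all of them on one side of 0, and COL6A1, COL7A1 and COL18A1 did not. COL5A1, P4HA1, COL12A1, COL11A2, COL4A5, COL11A1 and P4HA3 all passed 2-fold by less than this spread. Under other settings of scaling, filter, pseudocount and probe set choice, COL5A1 stayed past 2-fold in 4 of 10, COL11A2 in 6 of 9, P4HA3 in 7 of 9, COL1A1 in 7 of 8 and P4HA1 in 8 of 9 that gave a value. COL8A1, PLOD1 and PLOD2 were the next members on the lower side of that limit.

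**Figure D1:**
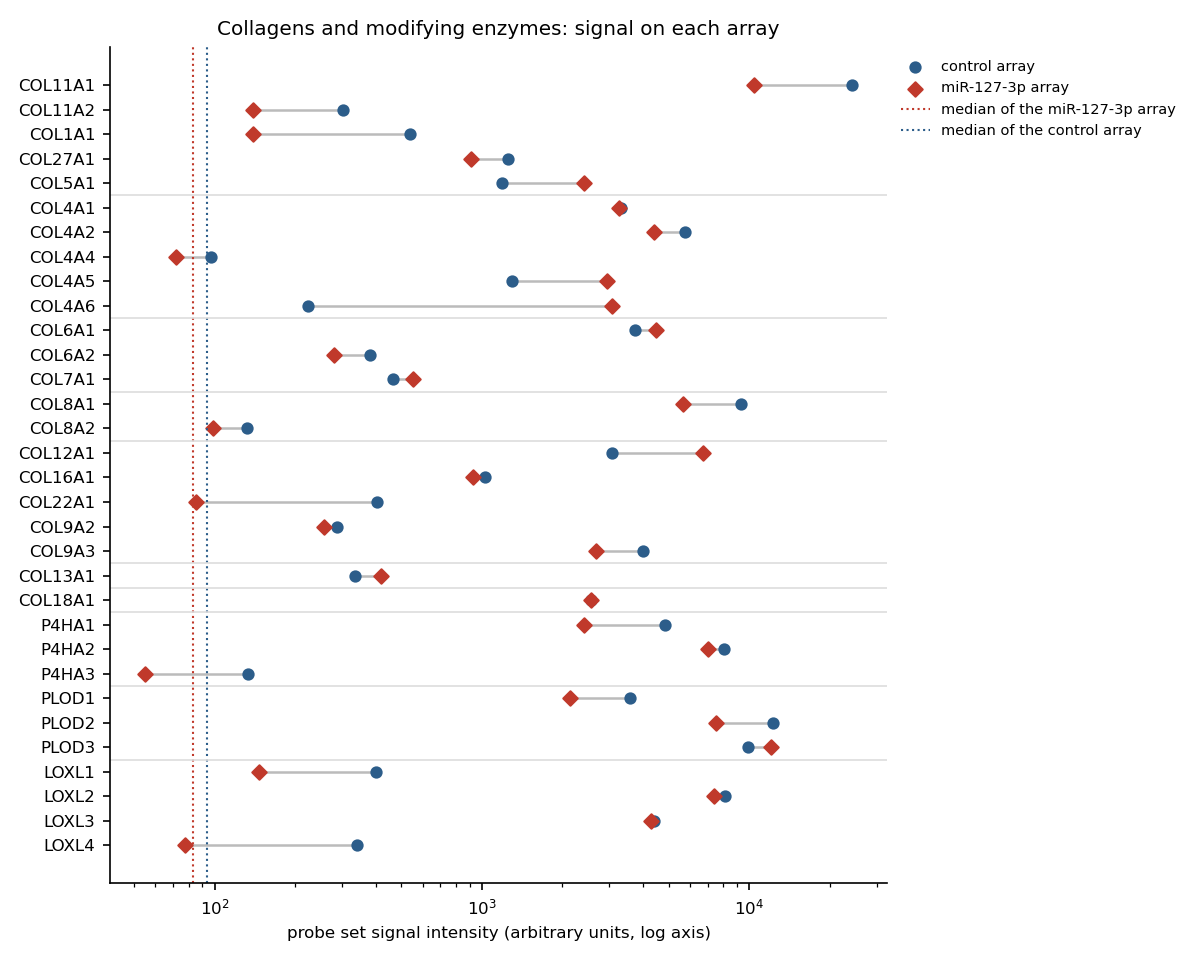
Signal intensity (arbitrary units, log axis) of the 32 collagen and enzyme genes above the filter, on the miR-127-3p array (red diamonds) and the control array (blue circles), with grey lines joining the pair and families set apart by horizontal lines. The dotted lines are the array medians of 83.3 and 93.9, near which COL4A4, P4HA3, LOXL4 and COL22A1 lie on the miR-127-3p array, and the symbols of COL18A1 overlap.

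Type IV collagen showed the widest difference among the members, in the COL4A5 and COL4A6 pair. COL4A6 encodes a chain of specialised basement membranes. Its brightest probe set read 3079 on the miR-127-3p array against 224 on the control array, so its log2 ratio was 3.77, which is 13.6-fold higher. A second COL4A6 probe set gave 495 and 34.9, which is at least 5.19-fold higher because the control signal was below its array median. This probe set passed the filter only through its miR-127-3p signal, so the filter set its direction. The third, below the filter, gave 147 and 43.9. All 3 COL4A6 probe sets were brighter with miR-127-3p.

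COL4A5, the neighbouring gene, whose chain also joins the kidney glomerular network, read 2941 on the miR-127-3p array against 1300 on the control array, so its log2 ratio was 1.17. This probe set carries the suffix of designs that can match other transcripts, so COL4A5 has no value above the filter without such designs. Its other probe set was below both medians at 34.1 and 22.0. Both genes of this pair thus passed 2-fold in the same direction, COL4A6 by the wider margin.

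The pair that makes the common basement membrane network differed less. COL4A1 read 3270 on the miR-127-3p array against 3313 on the control array, so its log2 ratio was -0.03. A second COL4A1 probe set gave 700 and 1143, at -0.72. COL4A2 gave 4398 and 5733, so its log2 ratio was -0.39, with its other probe set at -0.55. Both stayed within 2-fold at every probe set above the filter. In the remaining pair, COL4A4 gave 71.5 and 96.7, below the median of the miR-127-3p array and just above that of the control array. All 7 probe sets of COL4A3 were below both array medians, with highest signals of 49.3 and 44.1. Of the 6 chains, then, 2 were at least 2-fold higher, 3 were within 2-fold and 1 was below the filter, and the list median was -0.03. The 2 higher make 40% of the chains above the filter, against 5.06% of all genes.

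**Figure D2:**
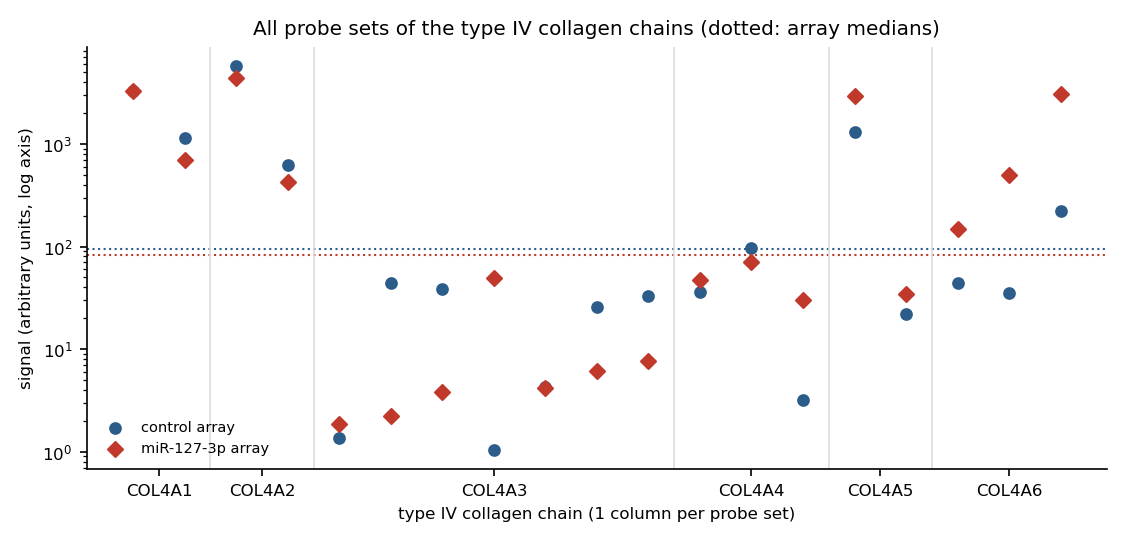
Signal (arbitrary units, log axis) of every probe set of the type IV collagen chains, 1 column per probe set, on the miR-127-3p array (red diamonds) and the control array (blue circles), with dotted lines at the array medians. All 3 COL4A6 probe sets are brighter with miR-127-3p, both symbols lie close together for COL4A1 and COL4A2, and all 7 COL4A3 probe sets lie below the medians; a red symbol can cover a blue one.

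Of 5 fibrillar chains above the filter, 3 passed 2-fold lower and 1 higher, and 4 had ratios below 0, with a list median of -1.13. By share, 60% passed lower and 20% higher, against 8.67% and 5.06% of all genes. COL11A1, the major chain of type XI, which nucleates fibrils, read 10394 on the miR-127-3p array against 24275 on the control array. Its log2 ratio was -1.24, and all 3 probe sets lay between -1.32 and -1.24. COL11A2, another type XI chain, gave 139 and 302, so its log2 ratio was -1.13, with a second probe set at -0.90. Both type XI chains were dimmer with miR-127-3p at every probe set above the filter.

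COL5A1, a type V chain that can assemble with type XI chains and sets fibril diameter, went the other way. It read 2410 on the miR-127-3p array against 1189 on the control array, so its log2 ratio was 1.01, and its 3 probe sets ranged from 0.48 to 1.06. At its brightest probe set without a cross-match suffix, COL5A1 was within 2-fold, at 0.50. COL27A1, a cartilage-type fibrillar chain, gave 908 and 1249, and its 3 probe sets ranged from -0.48 to -0.15.

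Type I collagen, the main fibril of skin and bone, differed between its probe sets. COL1A1 read 139 on the miR-127-3p array against 536 on the control array at its chosen probe set, so its log2 ratio was -1.95, and its 3 probe sets above the filter ranged from -1.95 to -0.04. The mean over those 3 was -0.81, which is within 2-fold. COL1A2, its partner chain, was below both array medians at all 3 probe sets. COL3A1, the type III chain of distensible tissues, was below the filter at all 5, and 2 of them exceeded the control median, at 120 and 102 in the control against 13.7 and 17.5 with miR-127-3p. COL2A1, the cartilage chain, and COL24A1 likewise exceeded only the control median, at 108 and 119.

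Among collagens that coat fibrils, COL12A1 and COL22A1 differed in opposite directions. COL12A1, which links fibrils to other matrix, read 6697 on the miR-127-3p array against 3081 on the control array, so its log2 ratio was 1.11. All 3 probe sets above the filter were at 0.90 or higher, and the 2 dimmer ones were also brighter with miR-127-3p. COL22A1, a collagen of tissue junctions such as muscle and tendon, gave 85.0 and 405, so its log2 ratio was -2.25, with the miR-127-3p signal close to the array median. A second probe set gave 39.3 and 260 and was at least 3.12-fold lower, and it passed the filter only through its control signal. All 3 COL22A1 probe sets were brighter in the control.

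COL9A3, a type IX chain, read 2676 on the miR-127-3p array against 4023 on the control array, so its log2 ratio was -0.60. COL9A2, of the same type, gave 256 and 287, a ratio of -0.18, and COL16A1 gave 930 and 1030, a ratio of -0.16. COL9A2, COL9A3 and COL16A1 were all dimmer with miR-127-3p, but within 2-fold. Of 5 fibril-associated chains above the filter, 1 was at least 2-fold higher and 1 lower, with a median of -0.18. Each makes 20% of these chains, against 5.06% higher and 8.67% lower among all genes.

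Other collagen families stayed within 2-fold. COL8A1, a network-forming chain of vessel walls, read 5648 on the miR-127-3p array against 9340 on the control array, so its log2 ratio was -0.74, and its sister COL8A2 gave 98.8 and 132. COL18A1, the source of the fragment endostatin, gave 2554 and 2560 at one probe set and 1154 and 1140 at the other, nearly equal on both arrays. COL13A1, a membrane-spanning collagen, gave 418 and 334, and COL7A1, the anchoring fibril collagen of skin, gave 551 and 466.

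Type VI collagen, which forms beaded filaments around cells, was uneven between probe sets. COL6A1 read 4464 on the miR-127-3p array against 3751 on the control array at its brightest, so its log2 ratio was 0.24, but its 4 probe sets above the filter ranged from -0.93 to 0.74. COL6A2 gave 279 and 383, so its log2 ratio was -0.47, and -0.99 at another probe set. COL6A3 gave 12.1 and 11.4, below both medians. Direction is therefore not settled for COL6A1, and the COL6A3 transcript was not above the median on either array.

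**Figure D3:**
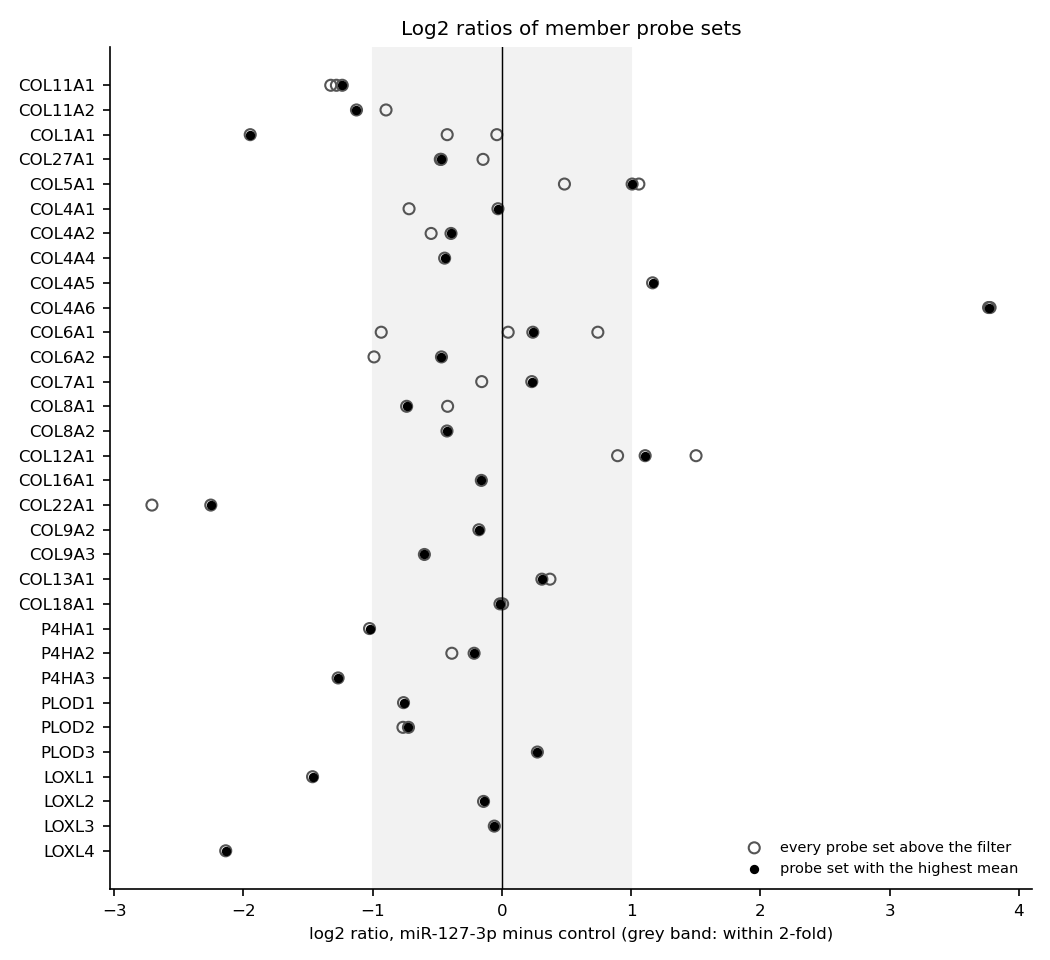
Log2 ratio, miR-127-3p minus control, of the 57 probe sets above the filter (open circles) of 32 collagen and enzyme genes, with the probe set that stands for the gene filled; the grey band marks differences within 2-fold. COL4A6 lies at 3.77 with the probe set that stands for it, COL11A1 has all 3 between -1.32 and -1.24, and COL1A1 and COL6A1 spread widely. The second COL4A6 circle rests on a control signal of 34.9, below the array median, so it shows only a fold of at least 5.19.

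The enzymes were lower with miR-127-3p in most cases, with ratios below 0 for 9 of 10 above the filter. By their measured signals 4 were past 2-fold lower, or 40%, against 8.67% of all genes, and none was higher, against 5.06%. With dim signals set to the array median, 3 were past 2-fold lower, against 8.04% of all genes passing lower. The enzyme median was -0.74, against -0.29 over 22 collagen chains. P4HA3 and LOXL4 read below the filter signal of 83.0 on the miR-127-3p array. At such signals a gene passes the filter only when its control signal is higher, so the direction of both was set by the filter. Both are included in the enzyme counts and in the enzyme median, which therefore lean toward lower values. The catalytic subunits of collagen prolyl 4-hydroxylase were unequal. P4HA1, the main subunit, read 2409 on the miR-127-3p array against 4861 on the control array, so its log2 ratio was -1.02. This probe set carries the suffix of designs that can match other transcripts. The other P4HA1 probe set was below both medians at 47.7 and 26.3, brighter with miR-127-3p. P4HA2, a second form, gave 6992 and 8052, a ratio of -0.22. P4HA3 gave 55.1 and 133 and was at least 1.60-fold lower, since the miR-127-3p signal was below its array median. Against that floor, P4HA3 does not reach 2-fold.

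Lysyl hydroxylases differed by member. PLOD1, which acts on the helical part of collagen, read 2132 on the miR-127-3p array against 3585 on the control array, so its log2 ratio was -0.76. PLOD2, the form that hydroxylates the telopeptides used in stiff cross-links, gave 7493 and 12270 at one probe set and a ratio of -0.77 at the other, with -0.72 at the first. PLOD3, which also adds sugars to hydroxylysine, gave 12055 and 9887, a ratio of 0.27. None of the 3 reached 2-fold, and PLOD3 was the only enzyme above 0.

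Of the lysyl oxidases, LOXL1 and LOXL4 were at least 2-fold lower and LOXL2 and LOXL3 were nearly equal. LOXL1, an oxidase of elastic fibres, read 146 on the miR-127-3p array against 403 on the control array, so its log2 ratio was -1.46. LOXL4 gave 77.5 and 342 and was at least 4.09-fold lower. LOXL2, an oxidase that acts on type IV collagen, gave 7409 and 8110, a ratio of -0.14, and LOXL3 gave 4275 and 4417, a ratio of -0.06. LOX itself, the founding member, had all 3 probe sets below both medians, with highest signals of 39.2 and 50.1.

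P4HA1, P4HA2, PLOD1, PLOD2 and LOX are textbook targets of the hypoxia-inducible factor HIF, so other HIF-responsive genes are given beside them. Of 11 such genes outside the collagen system, 6 were at least 2-fold lower, or 54.5%, against 8.67% of all genes above the filter. None was at least 2-fold higher, against 5.06% of all genes. The list median was -1.47, and 10 of 11 had ratios below 0. EGLN3, one of the 6, gave 61.3 and 222 and was at least 2.67-fold lower. It read below 83.0 on the miR-127-3p array, so its direction was set by the filter. BNIP3, a mitochondrial autophagy receptor, read 3875 on the miR-127-3p array against 13861 on the control array, and NDRG1, a stress-response gene, gave 3347 and 10578. SLC2A1 and PDK1 were at -2.19 and -1.97. ADM was the gene above 0, at 0.62. VEGFA and LDHA were within 2-fold at -0.29 and -0.24, and the VEGFA probe sets ranged from -0.83 to 0.08. This list was drawn up with earlier results of these arrays known, and its part in the enzyme values was not tested.

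The upstream sequences of P4HA1, PLOD1 and PLOD2, the hydroxylases furthest below 0 among those with a window in the table, are shown for the core HIF motif, ACGTG or GCGTG on either strand, in capitals. Each reads toward the start site, from RefSeq on GRCh38.p14: P4HA1 at chr10:73096923-73096977, minus strand, PLOD1 at chr1:11934624-11934716, plus strand, and PLOD2 at chr3:146161301-146161422, minus strand.
P4HA1: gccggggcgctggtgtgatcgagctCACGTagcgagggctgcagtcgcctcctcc
PLOD1: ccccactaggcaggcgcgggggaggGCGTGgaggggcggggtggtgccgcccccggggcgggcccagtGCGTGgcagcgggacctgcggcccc
PLOD2: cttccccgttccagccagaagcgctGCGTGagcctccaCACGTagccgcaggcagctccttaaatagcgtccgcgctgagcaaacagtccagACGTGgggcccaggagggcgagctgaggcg
P4HA1 held the motif 86 bases before its start site, PLOD1 held it at 68 and 25, and PLOD2 at 213, 200 and 146. The motif is common: 43.2% of all windows of 250 bases upstream hold it, as do 47.4% of genes with a window. Of the 9 enzymes with a window it was in 5, and of the 40 collagen and enzyme genes with one, in 21. The enzymes with it included LOXL3, whose log2 ratio was -0.06, and LOX, which was below both array medians. PLOD3, P4HA2, LOXL1 and LOXL4 had none in this window.

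Genes that work with the members were compared as fixed lists. The 12 measured genes of collagen folding and modification all stayed within 2-fold, with a median of 0.11. FKBP10, a collagen chaperone, read 1099 on the miR-127-3p array against 652 on the control array, and P4HB, the partner subunit of the prolyl hydroxylases, was at -0.29. SERPINH1, the collagen chaperone of the secretory pathway, was at -0.26.

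Of 8 export and propeptide processing genes above the filter, or 12.5% lower against 8.67% of all genes, only PCOLCE2 was past 2-fold. This enhancer of propeptide removal read 248 on the miR-127-3p array against 947 on the control array, so its log2 ratio was -1.94, while its relative PCOLCE was at 0.57 and the protease gene BMP1 at 0.62. The 3 BMP1 probe sets above the filter ranged from -0.09 to 0.62. Of 7 fibril assembly genes, DCN, the proteoglycan decorin, gave 1817 and 810, with 4 probe sets between 0.10 and 1.16. FMOD, fibromodulin, gave 61.0 and 139, past 2-fold by its measured signals but only at least 1.67-fold lower against the array median. The other 5 were within 2-fold at the probe set that stands for the gene, with a list median of 0.10. Among them, SPARC was at -0.42 there but at -1.49 at its other probe set, past 2-fold lower.

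Of 7 collagen receptor genes, 2 passed 2-fold toward miR-127-3p, or 28.6%, against 5.06% of all genes. None passed toward the control, against 8.67% of all genes, and the list median was 0.30. ITGA11, a receptor subunit for fibrillar collagen, read 462 on the miR-127-3p array against 184 on the control array, so its log2 ratio was 1.31. ITGA2, a receptor subunit shared by several collagens, gave 3186 and 1431, a ratio of 1.14, and 0.38 at another probe set. DDR2, a collagen-activated kinase, was at 0.91, but its 4 probe sets ranged from -0.41 to 1.09. ITGB1, the shared beta subunit, was at -0.04.

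**Figure D4:**
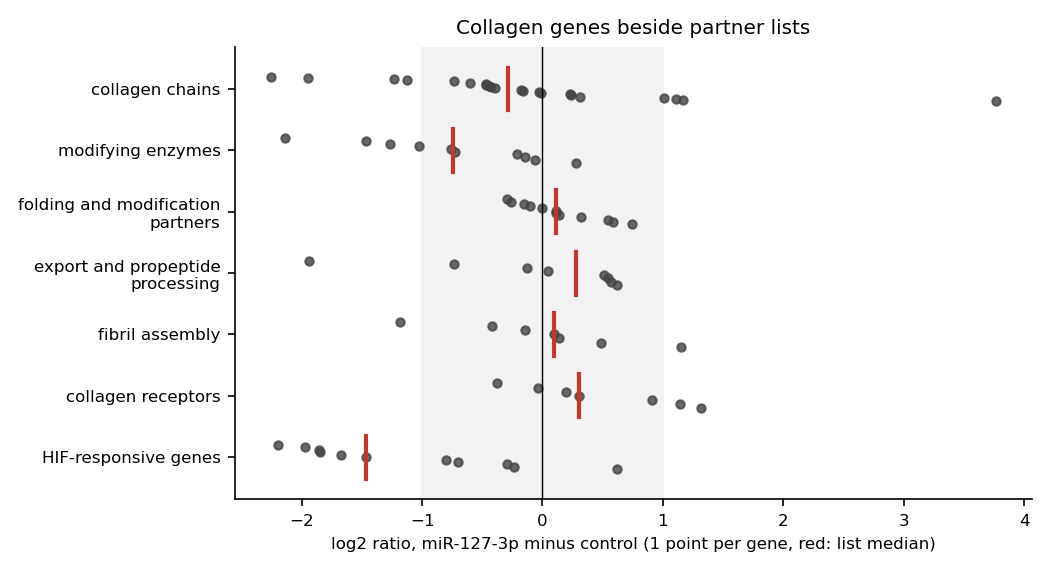
Log2 ratio, miR-127-3p minus control, with 1 point per gene above the filter, for collagen chains, modifying enzymes and 5 lists of other genes; red bars are list medians and the grey band marks differences within 2-fold. The enzyme median is -0.74 and that of the HIF-responsive genes -1.47, while folding partners sit around 0.11 with none past 2-fold. The enzyme median includes P4HA3 and LOXL4, and the HIF-responsive median includes EGLN3. Each of these genes passed the filter only through its control signal.

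The other 22 collagen and enzyme genes were below the filter. Besides COL2A1, COL3A1 and COL24A1, none of them had a probe set above either array median, with signals of the 19 no higher than 76.5 for miR-127-3p and 55.1 for the control. They were COL1A2, COL4A3, COL5A2, COL5A3, COL6A3, COL6A5, COL6A6, COL9A1, COL10A1, COL14A1, COL15A1, COL19A1, COL20A1, COL21A1, COL23A1, COL25A1, COL26A1, COL28A1 and LOX. Of the 4 antisense RNA genes, LOXL2-AS1 read 116 on the miR-127-3p array against 8.66 on the control array and was at least 1.22-fold higher. LOXL1-AS1 gave 18.5 and 123 and was at least 1.48-fold lower. COL18A1-AS1 and P4HA3-AS1 were below both medians.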

How the data were processed

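The deposited table holds a linear signal intensity per probe set for 2 arrays, with biotin-labelled cRNA made from total RNA by a 3′ labelling kit, per the labels' protocols. The software for summarising, background correction and scaling is not given in the sources used here; the 2% trimmed mean was 500.1 on each array. Detection calls were not used. Genes were named from the platform annotation, with 62 control probe sets left out. The filter, the pseudocount of 1, the choice of probe set and the 2-fold limit are as in the report, and 0.01 was subtracted from all log2 ratios. Where the dimmer signal was below its array median, that median stands in for it and the fold is "at least". This floor is no detection call.

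With 1 array per group no test was possible, and the number of arrays limits the precision. Every enzyme and collagen chain above the filter was named, with up to 4 genes past 2-fold per other list. Genes below the filter, P4HB, SERPINH1, FKBP10, PCOLCE, BMP1, SPARC, DDR2, ITGB1, VEGFA, LDHA, ADM, EGLN3 and GFAP were named after their values were seen. Members and lists were chosen with earlier results of these data known. Collagen XVII and COLGALT2, CA9 and DDR1 had no probe set with a single symbol and were not analysed here. The counting rule was tested on simulated arrays, which held no variation between cultures and so cannot measure that error. Promoter windows of RefSeq matched 40 of 54 genes. Python 3.11.15, numpy 2.4.6, pandas 2.3.3, statsmodels 0.14.6 and matplotlib 3.10.9 were used.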

Additional observations from a re-analysis of the deposited data

How the results depend on the processing

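The alternatives were no centring, quantile normalization, removal of a loess trend (span 0.3), pseudocounts of 16 and 32, dropping the filter or raising it to the 75th percentile, averaging a gene's probe sets, leaving out suffixed probe sets, and a floor at the array medians, with limits of 1.5-fold and 3-fold for the counts. All 12 members past 2-fold kept their sign in every alternative that gave them a value, and 7 stayed past 2-fold: COL4A6, COL4A5, COL12A1, COL11A1, COL22A1, LOXL1 and LOXL4. Of 299 member values, 5 moved further than the spread of 0.41 between probe sets. The count higher, 4 of 32, was 10 of 54 with no filter, 2 of 24 without suffixed probe sets and 1 at 3-fold. In this order these are 18.5%, 8.33% and 3.1% of members, against 12.8%, 5.60% and 1.57% of all genes. The count lower, 8 of 32, was 15 of 54 with no filter and 2 of 21 at the 75th percentile. It was 5 of 24 without suffixed probe sets and 3 at 3-fold. In this order these are 27.8%, 9.52%, 20.8% and 9.4% of members, against 17.2%, 4.95%, 8.83% and 3.94% of all genes. The members' median ranged from -0.41 to -0.18. The type IV median was 0.56 with either pseudocount and 0.52 at the 75th percentile, where fewer chains entered. At the 75th percentile the fibrillar median was -0.51 and that of the lysyl oxidases -0.14. Without suffixed probe sets the medians were -0.67 for fibrillar chains, -0.23 for lysyl hydroxylases and -1.45 for lysyl oxidases, and with no filter -0.29 for lysyl oxidases and 0.50 for the multiplexins, COL15A1 and COL18A1. These lists then held other numbers of genes. No paired analysis was possible because each group had 1 array. Dim signals limit what can be said of P4HA3, LOXL4, COL22A1 and COL4A4. Of these, P4HA3, LOXL4 and COL4A4 passed the filter only through their control signals.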
